A study of Homo sapiens with 39 samples.

Results

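The comparison described here set the 4 DMSO vehicle controls of a study in HepaRG™ cells against its 4 media controls, 8 of 39 sequencing libraries in all. They were chosen by their labels alone, and all genes measured were compared. The DMSO controls had been run beside cisplatin (CISP), 2-nitrofluorene (2NF), etoposide (ETP) and, as a shared control, aflatoxin B1 with colchicine (AFB1/COL). The media controls had been run beside sodium chloride (NaCl), 2-deoxyglucose (2DG), sodium ascorbate (ASC) and ampicillin trihydrate (AMP). The single water control, run beside methyl methanesulfonate (MMS), was placed beside both groups and entered no test, and the 30 libraries of treated cells were not used.

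HepaRG™ is an established line from a human liver tumour. Its differentiated cultures hold hepatocyte-like cells beside cells with biliary features. All controls were differentiated cells kept for 7 days after seeding, given vehicle on 3 consecutive days and collected 7 h after the last of these (55 h of exposure in total). Controls of the same vehicle differed in the test chemical they accompanied, and no control received a test chemical. The labels do not say whether each chemical was a separate experiment. The DMSO concentration in the wells, the dates of the experiments and the make-up of the culture medium are not given in the sources used here. Each library was RNA pooled in equal amounts from 3 cultures, so a library was counted as 1 replicate and the p-values below measure the spread between these libraries.

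DMSO is a polar solvent in which water-insoluble test chemicals are dissolved. In HepaRG™ culture it is also known as a differentiation agent: its addition is the usual way to bring these cells to, and hold them at, a hepatocyte-like state with high cytochrome P450 (CYP) levels and little cell division. Xenobiotic-metabolizing enzymes are commonly grouped into phase I, which oxidizes, reduces or hydrolyses a compound, and phase II, which conjugates it to glucuronic acid, sulfate or glutathione. Many of their genes are under ligand-activated transcription factors, among them the aryl hydrocarbon receptor (AHR), the pregnane X receptor (PXR, encoded by NR1I2) and the constitutive androstane receptor (CAR, encoded by NR1I3).

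Expression was measured by AmpliSeq, which amplifies 1 short target per gene, and the total count ran from 9548911 to 16425527 reads over the 9 controls, with 10 or more reads on 61.0% to 63.9% of 20802 targets. Most of 7 hepatocyte markers were plentiful in every library, but SERPINA1 (138 to 297 reads) and HNF4A (611 to 1665 reads) had fewer reads. ALB was between 14020 and 33206 RPM (reads normalised to the library total) and APOB between 2773 and 4957 RPM. The cholangiocyte markers KRT7, EPCAM and CFTR had at most 3 reads in any library, whereas KRT19 was between 396.6 and 1314 RPM, so the cholangiocyte-like share could be read only from the other markers. The summed level of 6 fibroblast and stellate cell markers was 144 to 172 RPM in the DMSO controls, 247 to 286 RPM in the media controls and 319.5 RPM in the water control, with COL1A2 at no more than 1 read. The endothelial markers CDH5 and VWF and the immune markers PTPRC, CD163 and MS4A1 had a count of 0 in all 9 libraries. STAB2 (endothelial) and CD3E (immune) had at most 2 and 1 reads. The other members were present: endothelial KDR at 39.2 to 80.2 RPM and PECAM1 at 2.72 to 18.7 RPM, and immune CD68 at 72.3 to 102.5 RPM. In bulk RNA, fewer cells of a type and less RNA per cell cannot be told apart, and this holds for each marker result below.

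The vehicle separated the libraries over the transcriptome as a whole. In a principal component analysis of the 9 controls, the first component (36.4% of the variance) placed the DMSO controls between -35.2 and -8.46, the media controls between 15.2 and 23.7 and the water control at 27.4. The AFB1/COL control was the DMSO control closest to the media controls. The second component (29.15%) did not follow the vehicle: the controls numbered 1 to 5 in the sample titles scored 8.64 to 28.01 and those numbered 6 to 9 scored -36.7 to 1.96. Both number ranges hold DMSO and media controls. Libraries of the same vehicle were not close copies of each other, since 400 to 651 genes differed by over 2-fold between pairs of DMSO controls and 133 to 1283 genes between pairs of media controls, against 623 to 1562 genes between a DMSO and a media control.

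**Figure D1:**
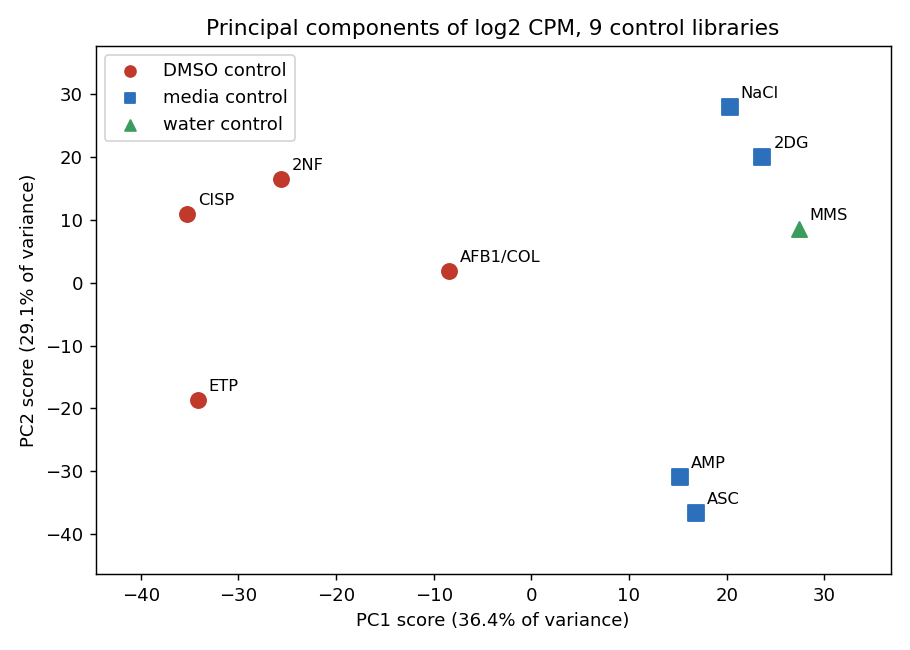
Scores of the 9 control libraries on the first and second principal components of log2 CPM (counts normalised to library size), 1 point per library, coloured by vehicle and labelled with the test chemical each was run beside. The 4 DMSO controls lie left of 0 on the first axis (-35.2 to -8.46) and the 4 media controls and the water control right of it (15.2 to 27.4), while the second axis separates NaCl and 2DG from ASC and AMP among the media controls.

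Gene by gene, 698 of 13053 genes tested (5.35%) differed between the vehicles at an adjusted p under 0.05 (edgeR quasi-likelihood test, Benjamini-Hochberg over all genes tested). Of these, 217 were higher in the DMSO controls (1.66% of genes tested) and 481 lower (3.68%). The median log2 fold change over all genes tested was 0.02. Differences over 2-fold were also unequal in number, with 51 genes higher and 251 lower. For 213 of the 217 higher and 474 of the 481 lower genes the DMSO and media groups did not overlap, against 5.87% and 7.68% of all genes tested. The genes were called on these same libraries, so the lack of overlap is no further support. The counts of called genes depended on single libraries and on the fit. The total was 1144 with DESeq2, 1166 with the water control added to the media controls, 1275 with a term for control numbers 1 to 5 against 6 to 9, and 907 without the AFB1/COL control. It was 227 without the CISP control, 278 without the ETP control, 361 without the 2DG control, 393 without the AMP control and 395 without the 2NF control, and 0 genes were called in the opposite direction in any of these fits.

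Cytochrome P450s, enzymes of phase I, led the genes that were higher in the DMSO controls. Of 25 phase I genes tested, 12 were higher in the DMSO controls (48.0%, beside 1.66% of all genes), with a median log2 fold change of 0.74 over the 25. The other 13 did not pass the test. CYP1A1 oxidizes polycyclic aromatic hydrocarbons and is the classic AHR target. It was at 414, 226, 132 and 435 RPM in the DMSO controls of CISP, 2NF, AFB1/COL and ETP, and at 52.4, 46.5, 33.1 and 25.6 RPM in the media controls of NaCl, 2DG, ASC and AMP. All 4 DMSO controls were above all media controls, with the AFB1/COL control lowest among them, and the log2 fold change was 2.95 (SE 0.36, 7.75-fold, edgeR quasi-likelihood adjusted p = 0.00234). The water control, at 39.9 RPM, lay within the media range.

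CYP1A2, which metabolizes caffeine and aromatic amines, was at 28.9, 23.8, 19.2 and 38.6 RPM in the DMSO controls and at 5.69, 1.84, 3.90 and 4.53 RPM in the media controls, in the same library order. The groups lay far apart, with a log2 fold change of 2.83 (SE 0.31, edgeR quasi-likelihood adjusted p = 0.00173), and the water control was at 2.70 RPM. CYP1B1, the third member of the family and the least liver-specific, had the largest fold change among the called genes that were higher and had at least 20 reads in each DMSO control (log2 3.19, SE 0.59, 9.15-fold, edgeR quasi-likelihood adjusted p = 0.0137). Its DMSO values were the most uneven: 389.9 and 369 RPM in the CISP and ETP controls, 118 RPM in the 2NF control and 35.3 RPM in the AFB1/COL control. The 4 media controls were at 19.8 to 30.6 RPM, so the AFB1/COL control was only just above them.

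Other AHR targets were examined as a list of 10 genes that shares the 3 CYP1 genes with the phase I list. Of the 10, 5 were higher in the DMSO controls (50.0%, beside 1.66% of all genes) and the median log2 fold change was 0.83. Beside the CYP1 genes these were ALDH3A1, an aldehyde dehydrogenase, at 252 ± 48.6 RPM in the media controls and 559.5 ± 167 RPM in the DMSO controls (SD, n = 4 each; log2 fold change 1.17, SE 0.20, edgeR quasi-likelihood adjusted p = 0.0110), and TIPARP, a mono-ADP-ribosyltransferase that restrains AHR (log2 1.05, SE 0.24, adjusted p = 0.0315). TIPARP lost its call in 5 of the 8 fits that left out 1 library, with an adjusted p of up to 0.0960. The receptor's repressor AHRR missed the threshold (log2 0.60, SE 0.17, adjusted p = 0.0643), as did AHR itself (0.48, SE 0.20, adjusted p = 0.207). NQO1, which answers to both AHR and NRF2, was at -0.37 (SE 0.28, adjusted p = 0.499). By library, the list was highest in the CISP and ETP controls, at 1.20 and 1.01 above the media mean on the log2 scale, and lower in the 2NF and AFB1/COL controls, at 0.69 and 0.46.

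CYP3A4, the main drug-oxidizing enzyme of adult liver, was at 165, 279, 113 and 138 RPM in the DMSO controls and at 27.4, 12.2, 20.03 and 23.2 RPM in the media controls. Here the 2NF control was the highest DMSO control, unlike for CYP1A1. The log2 fold change was 3.09 (SE 0.31, 8.51-fold, edgeR quasi-likelihood adjusted p = 0.00144), and the water control, at 8.41 RPM, was below every other library. CYP2B6, the usual marker of CAR activity, was at 62.0, 105, 59.9 and 72.6 RPM in the DMSO controls against 22.6, 14.5, 29.2 and 29.8 RPM in the media controls (log2 1.66, SE 0.24, adjusted p = 0.00475). CYP2E1, which oxidizes ethanol and small solvents, was at 79.4, 147, 76.3 and 100.2 RPM against 45.2, 14.5, 26.5 and 24.3 RPM (log2 1.89, SE 0.31, adjusted p = 0.00793). Both genes were highest in the 2NF control and lowest in the 2DG control.

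Smaller differences among the 12 included those of CYP3A5 (log2 0.96), CYP2A6, the nicotine-oxidizing enzyme (1.30), the acetaldehyde dehydrogenase ALDH2 (0.90), the epoxide hydrolase EPHX1 (0.74) and POR, the reductase that supplies electrons to all microsomal CYPs (0.68). EPHX1 was among the most even of them, at 848 ± 34.4 RPM in the media controls and 1392 ± 121 RPM in the DMSO controls (SD, n = 4 each; edgeR quasi-likelihood adjusted p = 0.00295). With each library left out in turn, CYP1A1, CYP1A2, CYP1B1, CYP3A4, CYP3A5, CYP2B6, CYP2E1, ALDH2 and EPHX1 were called in all 8 fits, whereas POR lost its call in 6 and CYP2A6 in 5, with adjusted p of up to 0.0921 and 0.0975. The pseudogene CYP2B7P1, a near copy of CYP2B6, differed in the same direction (log2 2.30, adjusted p = 0.00173), and reads of such copies, and of CYP3A4, CYP3A5 and CYP3A7, may have been shared between their targets. CYP3A7, the fetal form, had a log2 fold change of -0.13 (SE 0.33, adjusted p = 0.866).

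The promoters of a CYP1 and a CYP3 gene are shown because these families gave the largest differences. Both are the 250 bases before the transcription start in RefSeq (GRCh38.p14), CYP1A1 at chr15:74725529-74725778 and CYP3A4 at chr7:99784185-99784434, both on the minus strand and read 5′ to 3′. Capitals mark, in CYP1A1, the core of the xenobiotic response element bound by AHR (GCGTG, searched on both strands), whose first letter lies 57 bases before the start. In CYP3A4 they mark an everted repeat of the kind bound by PXR and CAR (TGAACT and AGGTCA with 6 bases between them, both strands), 169 bases before the start.
CYP1A1: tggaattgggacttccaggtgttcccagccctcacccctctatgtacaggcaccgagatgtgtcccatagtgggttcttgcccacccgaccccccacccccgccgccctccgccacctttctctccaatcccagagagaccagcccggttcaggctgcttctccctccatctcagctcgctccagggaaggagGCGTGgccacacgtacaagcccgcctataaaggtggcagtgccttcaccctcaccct
CYP3A4: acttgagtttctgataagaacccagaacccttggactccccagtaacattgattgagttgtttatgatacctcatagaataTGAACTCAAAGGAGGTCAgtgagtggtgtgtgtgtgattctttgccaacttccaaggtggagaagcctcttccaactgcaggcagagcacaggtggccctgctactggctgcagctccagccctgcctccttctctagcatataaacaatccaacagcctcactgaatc
Of 27305 promoters of this length in the table, 1 per gene, 31.9% held the short core and 3 held the everted repeat. A match is a description of letters and not evidence that a factor was bound. The PXR gene NR1I2 itself had only 5 to 13 reads per library and did not enter the test, and CAR (NR1I3) had a log2 fold change of 0.84 (SE 0.38, adjusted p = 0.231).

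Among 26 phase II genes, 5 were higher in the DMSO controls (19.2%, beside 1.66% of all genes) and the median log2 fold change was 0.21. They were 4 UDP-glucuronosyltransferases of the UGT1A locus and the sulfotransferase SULT2A1, which sulfates bile acids and steroids. UGT1A1, the bilirubin-conjugating enzyme, was at 747, 569.7, 320.3 and 610.5 RPM in the DMSO controls and at 159, 144, 188 and 193 RPM in the media controls (log2 1.73, SE 0.21, edgeR quasi-likelihood adjusted p = 0.00235). The lowest DMSO control, AFB1/COL, was still above every media control. UGT1A3 (log2 1.72), UGT1A4 (1.57) and UGT1A9 (1.30) were higher as well, but the forms of this locus share all exons but the first and their reads may not be separable. UGT1A6, of the same locus, had a log2 fold change of 0.09 (SE 0.18, adjusted p = 0.820). The count of 5 higher was 3 without the 2NF control, where SULT2A1 (log2 1.29, adjusted p = 0.0189) and UGT1A4 lost their calls. Of the 26 phase II genes, 8 had a negative log2 fold change. The sulfotransferase SULT1B1 was lower without overlap of the groups but missed the threshold (log2 -1.35, SE 0.36, adjusted p = 0.0569). With limma-voom 1 phase II gene was called lower, and with DESeq2 2 were. Among 17 transporters, 1 was called (5.88%, near the 5.35% of all genes called), the cation exporter SLC47A1 (log2 0.81, SE 0.17, adjusted p = 0.0191), and among 22 liver transcription factors and nuclear receptors PPARA was higher (0.48, adjusted p = 0.0246) and PPARG lower (-0.55, adjusted p = 0.0420). The share called in the latter list was 9.09%. SLC47A1 and PPARA each lost the call in 3 of the 8 fits with 1 library left out and PPARG in 7, with adjusted p of up to 0.0751, 0.0915 and 0.137. HNF4A, the central hepatocyte transcription factor, overlapped between the groups (log2 0.26, SE 0.18, adjusted p = 0.448).

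**Figure D2:**
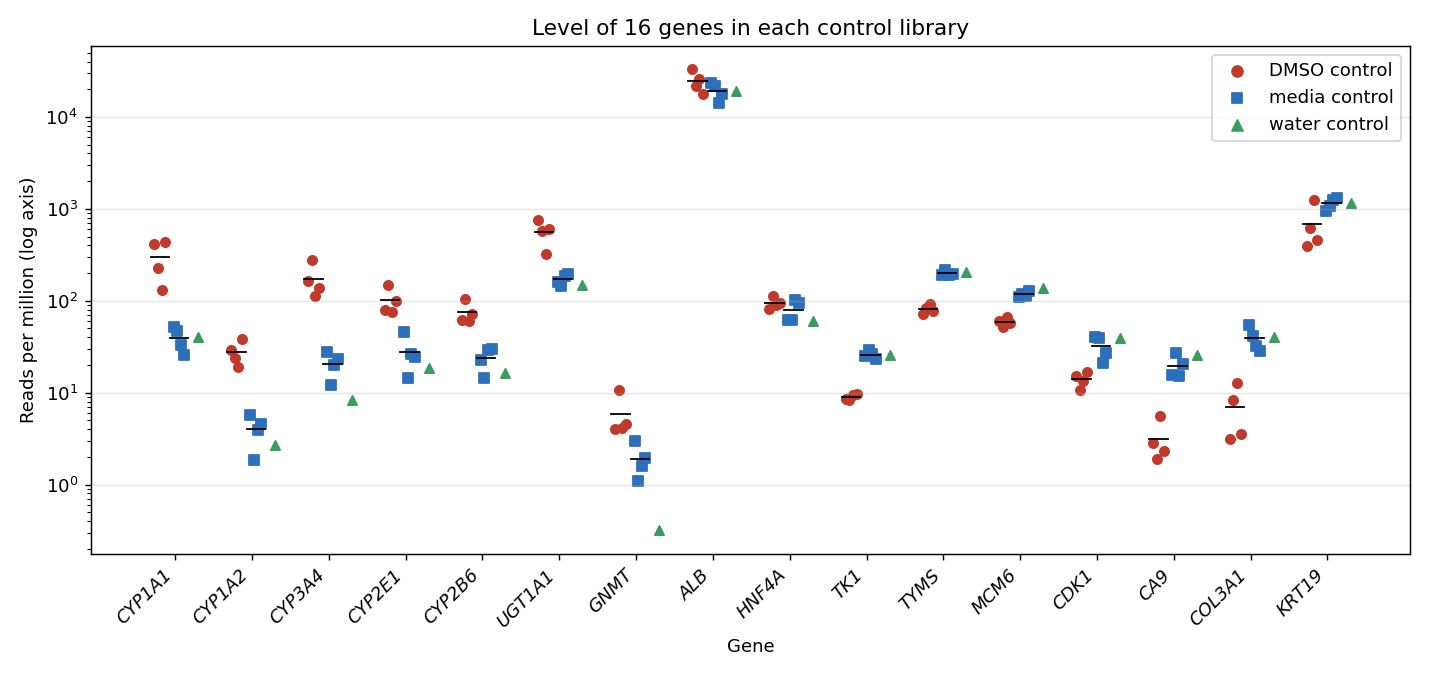
RPM of 16 genes in each of the 9 control libraries on a log axis. Each point is 1 library, and the black bars are means of 4 libraries per vehicle. CYP1A1, CYP1A2, CYP3A4, CYP2E1, CYP2B6, UGT1A1 and GNMT lie higher in the DMSO controls and TK1, TYMS, MCM6, CDK1, CA9 and COL3A1 lower, with the water control on the side of the media controls, while ALB, HNF4A and KRT19 overlap.

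Genes of DNA replication were lower in the DMSO controls almost throughout. Of 24 tested, 21 were called lower (87.5%, beside 3.68% of all genes), and the median log2 fold change was -1.13. TK1, thymidine kinase of the nucleotide salvage pathway, had the smallest p of all genes. It was at 8.50, 8.38, 9.52 and 9.61 RPM in the DMSO controls and at 25.1, 28.9, 26.1 and 23.3 RPM in the media controls. The libraries of a vehicle were close to each other and the vehicles far apart (log2 -1.49, SE 0.13, 2.82-fold lower, edgeR quasi-likelihood adjusted p = 0.00114), and the water control was at 25.4 RPM.

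TYMS, the thymidylate synthase that makes dTMP, was at 71.2, 83.6, 92.6 and 76.6 RPM in the DMSO controls against 192, 216, 192 and 194 RPM in the media controls (log2 -1.27, SE 0.11, edgeR quasi-likelihood adjusted p = 0.00114). The 6 subunits of the MCM2-7 helicase, which opens the double strand ahead of the fork, fell together, with log2 fold changes between -1.34 (MCM2 and MCM5) and -0.97 (MCM6). MCM6 was at 59.6, 51.5, 66.1 and 57.6 RPM against 111, 118, 113 and 127 RPM, and the water control, at 136 RPM, was above all of them. The factors that load and start the helicase were lower too: CDC6 (log2 -1.35), CDT1 (-1.38), MCM10 (-1.57), CDC45 (-1.80), GINS1 (-1.23) and GINS2 (-1.46). So was E2F1, the transcription factor of the G1/S transition, at 13.0 ± 3.41 RPM in the DMSO controls and 38.1 ± 3.73 RPM in the media controls (SD, n = 4 each; log2 -1.52, SE 0.18, edgeR quasi-likelihood adjusted p = 0.00197).

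Of the rest of the list, the polymerase clamp PCNA (log2 -0.70), the clamp loaders RFC3 (-1.21) and RFC4 (-0.89), the flap endonuclease FEN1 (-0.87), the ribonucleotide reductase subunit RRM2 (-0.96) and the primase-polymerase subunit POLA1 (-0.69) were called lower. RRM1, the other reductase subunit (log2 -0.63, adjusted p = 0.0773), and POLE, a subunit of polymerase epsilon (-0.15, adjusted p = 0.621), were not. With each library left out in turn, 19 to 23 of the 24 genes were called lower. PCNA lost the call in 3 of the 8 fits and POLA1 in 7, with adjusted p of up to 0.0698 and 0.126, and the other 19 called genes were called in all 8.

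Promoters of 4 of these genes are printed because their members moved together and are known targets of E2F factors. They are the 250 bases before the start in RefSeq (GRCh38.p14): MCM6 at chr2:135876444-135876693, MCM3 at chr6:52284743-52284992 and E2F1 at chr20:33686386-33686635, all on the minus strand, and TYMS at chr18:657403-657652 on the plus strand. Capitals mark letters of the E2F site, searched on both strands as TTTGGCGC, TTTCCCGC, TTTGCCGC and TTTCGCGC, of which overlapping matches run together.
MCM6: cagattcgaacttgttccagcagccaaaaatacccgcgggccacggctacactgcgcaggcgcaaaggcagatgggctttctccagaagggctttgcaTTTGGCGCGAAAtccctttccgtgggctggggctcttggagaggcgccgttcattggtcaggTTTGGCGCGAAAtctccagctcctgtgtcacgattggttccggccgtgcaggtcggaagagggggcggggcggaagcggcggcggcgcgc
MCM3: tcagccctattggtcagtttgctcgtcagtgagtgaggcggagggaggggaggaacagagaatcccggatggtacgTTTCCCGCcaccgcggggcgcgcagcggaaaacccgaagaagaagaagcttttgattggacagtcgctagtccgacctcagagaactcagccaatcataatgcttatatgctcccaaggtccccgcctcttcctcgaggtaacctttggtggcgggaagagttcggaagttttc
E2F1: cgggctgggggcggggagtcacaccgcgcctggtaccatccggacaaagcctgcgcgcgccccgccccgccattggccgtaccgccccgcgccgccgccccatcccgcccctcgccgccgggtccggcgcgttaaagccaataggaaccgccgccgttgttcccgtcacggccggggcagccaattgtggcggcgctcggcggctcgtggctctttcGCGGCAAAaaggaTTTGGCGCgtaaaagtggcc
TYMS: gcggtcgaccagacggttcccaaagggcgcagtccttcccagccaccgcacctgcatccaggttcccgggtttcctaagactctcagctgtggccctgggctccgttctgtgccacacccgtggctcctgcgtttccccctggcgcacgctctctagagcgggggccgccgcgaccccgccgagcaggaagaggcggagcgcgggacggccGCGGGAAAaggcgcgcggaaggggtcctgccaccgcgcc
The MCM6 window held 2 blocks, each of 2 overlapping matches on opposite strands, and the TYMS match began 39 bases before the start. Transcripts of the GENCODE annotation were searched for the first bases after each start, near the transcript's own beginning. They were found in 0 transcripts of MCM6, 5 of MCM3, 1 of E2F1 and 2 of TYMS, so the MCM6 start is less certain. A promoter was found for 21 of the 24 genes tested, and 11 of the 21 (52.4%) held an E2F match, among them MCM3, MCM6, MCM7, PCNA, TYMS, CDT1, GINS2 and E2F1, against 2.79% of all 27305 promoters. The list holds known E2F targets and the 27305 include genes not tested here, so this contrast was set by the choice of list and background. The AHR core GCGTG was also more frequent here, in 47.6% against 31.9% of all promoters. The box CCAAT was found in 14 of the 21 (66.7%) and in 33.0% of all. TK1, which had the smallest p, held none of the E2F letters in its window, which says only that these letters are not there.

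Mitotic genes were lower as well, with more spread. Of 19 tested, 12 were called lower (63.2%, beside 3.68% of all genes), and the median log2 fold change was -1.09. BIRC5, the chromosomal passenger protein survivin, was at 11.3, 12.9, 12.1 and 14.8 RPM in the DMSO controls and at 41.2, 39.6, 27.1 and 25.2 RPM in the media controls (log2 -1.36, SE 0.18, edgeR quasi-likelihood adjusted p = 0.00357). CDK1, the kinase that drives entry into mitosis, was at 15.2, 10.7, 13.5 and 16.7 RPM against 40.5, 39.1, 20.9 and 27.1 RPM (log2 -1.16, SE 0.22, adjusted p = 0.0153). In both genes the NaCl and 2DG controls were the higher media controls and the ASC and AMP controls the lower, a split that was also seen in the level of the whole list, at 0.25 and 0.42 against -0.35 and -0.35 on the log2 scale. MKI67, the common proliferation marker, was called (log2 -1.22, SE 0.28, adjusted p = 0.0335) although its lowest media control, ASC at 13.6 RPM, was level with its highest DMSO control, CISP at 13.7 RPM.

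CDC20 (log2 -1.40), TTK (-1.32), BUB1B (-1.27), PLK1 (-1.19) and KIF20A (-1.18), which act in chromosome segregation and the spindle checkpoint, and the topoisomerase TOP2A (-1.10) were lower in every fit with 1 library left out. CDK1 lost its call in 1 of these 8 fits, CENPF in 3, and MKI67 and NUSAP1 in 6 each, with adjusted p of up to 0.0527, 0.0704, 0.106 and 0.118. MKI67 and NUSAP1 were also not called with limma-voom (adjusted p = 0.0578 and 0.0539), where the count for the list was 10. UBE2C (log2 -0.21, adjusted p = 0.766) and CCNB2 (-0.40, adjusted p = 0.498) did not pass. The list differed by -1.38 at the median between the controls numbered 1 to 5 and by -0.62 between those numbered 6 to 9. The same medians for the replication genes were -1.22 and -1.01. Outside both lists, ZWINT, a kinetochore protein (log2 -1.12), and FAM111B, a protease of dividing cells (-1.49), were among the 5 genes with the smallest p, each with an adjusted p of 0.00144.

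Promoters of 2 mitotic genes are shown for the cell cycle homology region (CHR, TTTGAA, both strands, in capitals), the element through which many such genes are switched off outside the cycle. They are the 250 bases before the start of PLK1 at chr16:23678639-23678888 and CDC20 at chr1:43358731-43358980, both on the plus strand (RefSeq, GRCh38.p14).
PLK1: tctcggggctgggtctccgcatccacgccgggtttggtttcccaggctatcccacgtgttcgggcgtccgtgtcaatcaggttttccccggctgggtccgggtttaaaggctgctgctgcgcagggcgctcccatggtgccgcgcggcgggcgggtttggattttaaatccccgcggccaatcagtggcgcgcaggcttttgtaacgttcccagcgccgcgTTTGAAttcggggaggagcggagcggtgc
CDC20: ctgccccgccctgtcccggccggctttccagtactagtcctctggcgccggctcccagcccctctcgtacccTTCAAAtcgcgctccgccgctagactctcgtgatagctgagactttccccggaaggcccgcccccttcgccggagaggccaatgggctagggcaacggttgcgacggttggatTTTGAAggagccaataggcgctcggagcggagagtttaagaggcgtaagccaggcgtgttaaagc
Of 16 mitotic genes with a promoter in the table, 8 (50.0%) held the CHR letters and 14 (87.5%) held CCAAT, against 13.6% and 33.0% of all promoters. An E2F match was found in 1 of the 16. The AHR core GCGTG was in 50.0% of the 16, against 31.9% of all promoters, which include genes not tested here. These contrasts are descriptions only. The replication promoters held the CHR letters in 1 of 21.

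Histone genes gave few calls (7.69%, beside 5.35% of all genes). Of 13 tested, 1 was called, HIST1H4H (log2 -0.83, SE 0.19, adjusted p = 0.0293), and it lost the call in each of the 8 fits with 1 library left out (up to 0.0742). Histone genes have near-identical copies, and their reads are uncertain. Of 8 DNA methylation genes, UHRF1, which brings maintenance methylation to newly copied DNA, was lower, at 3.81 ± 1.40 RPM in the DMSO controls and 14.1 ± 1.03 RPM in the media controls (SD, n = 4 each; log2 -1.84, SE 0.24, edgeR quasi-likelihood adjusted p = 0.00309). The share called in this list was 12.5%. The methyltransferase DNMT1 was not called (log2 -0.26, adjusted p = 0.429).

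Targets of the tumour suppressor p53 are commonly read as a sign of DNA damage. Of 24 tested, 4 were lower in the DMSO controls (16.7%, beside 3.68% of all genes), and the median log2 fold change was -0.35. DDB2, a damage sensor of nucleotide excision repair, was at 36.4, 48.2, 55.1 and 41.1 RPM in the DMSO controls and at 83.2, 84.0, 86.2 and 90.8 RPM in the media controls (log2 -0.90, SE 0.13, edgeR quasi-likelihood adjusted p = 0.00518). FDXR, ferredoxin reductase, was at 48.6, 37.8, 51.6 and 40.4 RPM against 77.8, 77.9, 89.5 and 93.0 RPM (log2 -0.90, SE 0.13, adjusted p = 0.00449). For both genes every DMSO control was below every media control, and the calls held with any library left out. SPATA18 (log2 -0.75, adjusted p = 0.0412) and the apoptosis effector BAX (-0.51, adjusted p = 0.0184) lost theirs in 7 and 4 of these 8 fits, with adjusted p of up to 0.126 and 0.0752. The count was 2 without the CISP, ETP, 2DG or AMP control and 7 with DESeq2 or with the water control added to the media controls.

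The best-known p53 targets overlapped between the vehicles. CDKN1A, the cell cycle inhibitor p21, was at 573 ± 53.9 RPM in the DMSO controls and 627 ± 67.9 RPM in the media controls (SD, n = 4 each; log2 -0.11, SE 0.11, adjusted p = 0.621). MDM2, the ubiquitin ligase of p53, was at 397, 430.5, 390.3 and 241 RPM in the DMSO controls and at 628, 691, 283 and 301 RPM in the media controls (log2 -0.36, SE 0.29, adjusted p = 0.531). The NaCl and 2DG controls, and the water control at 777 RPM, were high and the ASC and AMP controls low, so the controls numbered 1 to 5 in the titles were all above those numbered 6 to 9, whatever the vehicle.

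**Figure D3:**
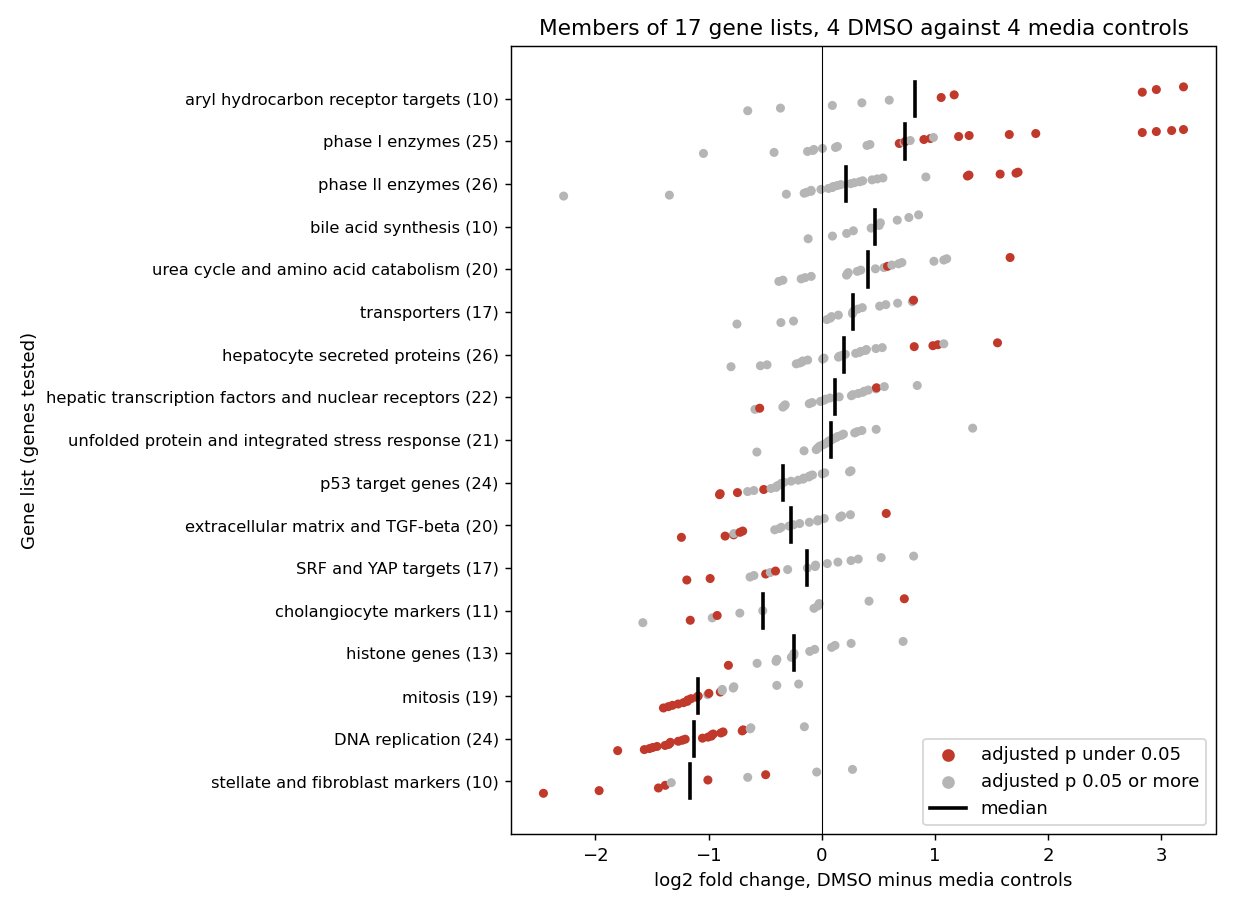
Log2 fold change of each tested member of 17 gene lists, DMSO minus media controls (4 libraries each), 1 point per gene. Red points passed an adjusted p under 0.05 in edgeR's quasi-likelihood test, grey points did not, black bars are list medians and the number tested is in brackets. The replication, mitosis and fibroblast lists lie left of 0 (medians -1.13, -1.09 and -1.17) and the AHR target and phase I lists right of it (0.83 and 0.74).

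Hepatocyte functions other than drug metabolism differed less. Of 26 secreted proteins, 4 were higher in the DMSO controls (15.4%, beside 1.66% of all genes), with a median log2 fold change of 0.19. TTR, which carries thyroxine and retinol-binding protein, was at 5059, 5488, 4802 and 5207 RPM in the DMSO controls and at 2263, 909.5, 1903 and 2029 RPM in the media controls (log2 1.55, SE 0.23, edgeR quasi-likelihood adjusted p = 0.00531). VTN, vitronectin, was at 708 ± 104 against 364 ± 53.02 RPM (SD, n = 4 each; log2 0.98, SE 0.14, adjusted p = 0.00436). The apolipoproteins APOC3 (log2 1.02, adjusted p = 0.0231) and APOA1 (0.82, adjusted p = 0.0475) lost the call in 3 and 7 of the 8 fits with 1 library left out, with adjusted p of up to 0.0599 and 0.134, and APOA1 also under robust dispersion and under a filter of 10 counts in every library. The count for this list was 2 without the 2NF, ETP or AMP control and 7 with a term for the control numbers. ALB overlapped between the groups, at 33206, 21742, 26125 and 17792 RPM in the DMSO controls and 23406, 21791, 14020 and 17632 RPM in the media controls (log2 0.39, SE 0.21, adjusted p = 0.326).

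Enzymes of amino acid and sulfur metabolism gave a few calls. Of 20 genes of the urea cycle and amino acid catabolism, GNMT, a glycine methyltransferase that disposes of S-adenosylmethionine (log2 1.66, SE 0.39, adjusted p = 0.0348), and ASS1, argininosuccinate synthase of the urea cycle (0.58, SE 0.11, adjusted p = 0.0159), were higher, and the median log2 fold change was 0.41. Their share of the list was 10.0%, beside 1.66% of all genes. The count of 2 higher was 4 with limma-voom and 9 with DESeq2, with the water control added to the media controls or with a term for the control numbers. GNMT was low throughout, at 4.04, 10.7, 4.15 and 4.54 RPM in the DMSO controls and 1.09 to 2.95 RPM in the media controls, and lost the call in 6 of 8 fits with 1 library left out (up to 0.0838). Without the CISP or ETP control ASS1 was not called, with an adjusted p of up to 0.0645. Since DMSO is a sulfoxide, 12 genes of sulfoxide reduction, flavin monooxygenases and sulfur oxidation were also examined. Of these, CDO1, cysteine dioxygenase (log2 0.66, adjusted p = 0.0257), SUOX, sulfite oxidase (0.56, adjusted p = 0.0366), and TST, the sulfurtransferase rhodanese (0.50, adjusted p = 0.0343), were higher (25.0%, beside 1.66% of all genes). Each lost the call in 4 to 6 of the 8 fits with 1 library left out, with adjusted p of up to 0.122. The aquaglyceroporin AQP9 (log2 0.99, SE 0.19, adjusted p = 0.0158) was called among 12 genes of osmolyte and water transport, PCK2, which makes phosphoenolpyruvate in mitochondria (0.78, adjusted p = 0.0187), among 15 of glycolysis and gluconeogenesis, and FTL, the ferritin light chain (0.61, adjusted p = 0.0293), among 19 NRF2 targets. The shares called in these lists were 8.33%, 6.67% and 5.26%, not far from the 5.35% of all genes. AQP9 lost the call in 2 of the 8 such fits, PCK2 in 3 and FTL in 6, with adjusted p of up to 0.0559, 0.0634 and 0.103, and FTL also with limma on RPM.

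Markers of mesenchymal cells were lower in the DMSO controls. Of 10 stellate cell and fibroblast markers tested, 6 were called lower (60.0%, beside 3.68% of all genes), with a median log2 fold change of -1.17. COL3A1, fibrillar collagen of connective tissue, was at 3.13, 8.38, 12.7 and 3.56 RPM in the DMSO controls and at 54.0, 41.2, 32.6 and 28.5 RPM in the media controls (log2 -2.46, SE 0.40, 5.50-fold lower, edgeR quasi-likelihood adjusted p = 0.00736). POSTN, the matrix protein periostin, was at 62.2, 77.0, 65.4 and 41.8 RPM against 219, 177, 136 and 120 RPM (log2 -1.38, SE 0.22, adjusted p = 0.00640). In both genes the groups were well apart, and the NaCl control was the highest library. The proteoglycans DCN (log2 -1.44, adjusted p = 0.0169) and LUM (-1.01, adjusted p = 0.0494), the intermediate filament DES (-1.97, adjusted p = 0.0127) and smooth muscle actin ACTA2 (-0.50, adjusted p = 0.0198) made up the rest.

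Not every marker of these cells differed. COL1A1, the main collagen of activated stellate cells, had a log2 fold change of 0.27 (SE 0.22, adjusted p = 0.519), and the pericyte receptor PDGFRB was at 14.5 to 29.01 RPM over all 9 libraries. The count of 6 was 3 without the CISP, 2NF or ETP control, and LUM, which was nearest the threshold, also lost its call with limma and with robust dispersion. Among 20 genes of the extracellular matrix and TGF-beta signalling, 5 were called lower (beside 3.68% of all genes) and 1 higher (beside 1.66%). The lower genes were MMP7, TGFB2, FN1, SPARC and TGFBI (log2 -1.24 to -0.70). FN1 lost the call in 5 of 8 fits with 1 library left out. The higher gene was the TGF-beta inhibitor SMAD7 (log2 0.57, adjusted p = 0.0470). Its call was lost in 7 of 8 fits with 1 library left out (adjusted p of up to 0.157). The SMAD7 call was also lost under other normalizations, with limma and under other filters. TGFB2, a TGF-beta ligand, was at 44.5 ± 5.46 RPM in the DMSO controls and 81.7 ± 7.93 RPM in the media controls (SD, n = 4 each; log2 -0.85, SE 0.12, edgeR quasi-likelihood adjusted p = 0.00426). Of 17 targets of SRF and YAP, which report on the actin cytoskeleton, FLNA (log2 -1.19), TPM2 (-0.99), ACTA2 (-0.50) and TPM1 (-0.41) were lower (23.5%, beside 3.68% of all genes). FLNA, filamin A, held with any library left out, and this count was 1 without the CISP or ETP control and 2 without the 2NF control or any of the media controls, and 7 with DESeq2 or with the water control added.

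Markers of cholangiocyte-like and progenitor cells were mostly lower, but few were called and not all in 1 direction. Of 11 tested, 9 had a negative and 2 a positive log2 fold change. Called were 2 lower and 1 higher (27.3%, beside 5.35% of all genes). SPP1, osteopontin, was called lower (log2 -1.16, SE 0.25, adjusted p = 0.0250), although its groups overlapped. SOX9, a progenitor transcription factor, was higher, at 31.5, 39.1, 33.4 and 37.3 RPM in the DMSO controls and 16.4, 26.2, 22.6 and 21.2 RPM in the media controls (log2 0.73, SE 0.15, edgeR quasi-likelihood adjusted p = 0.0183). The biliary keratin KRT19 was at 397, 626, 1233 and 455 RPM against 942, 1076, 1248 and 1314 RPM (log2 -0.72, SE 0.31, adjusted p = 0.211). It was low in 3 DMSO controls and within the media range in the AFB1/COL control. With 1 library left out, SPP1 lost its call in 4 and SOX9 in 2 of the 8 fits, with adjusted p of up to 0.0924 and 0.0612. The list median of -0.52 was -0.84 without the AFB1/COL control.

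**Figure D4:**
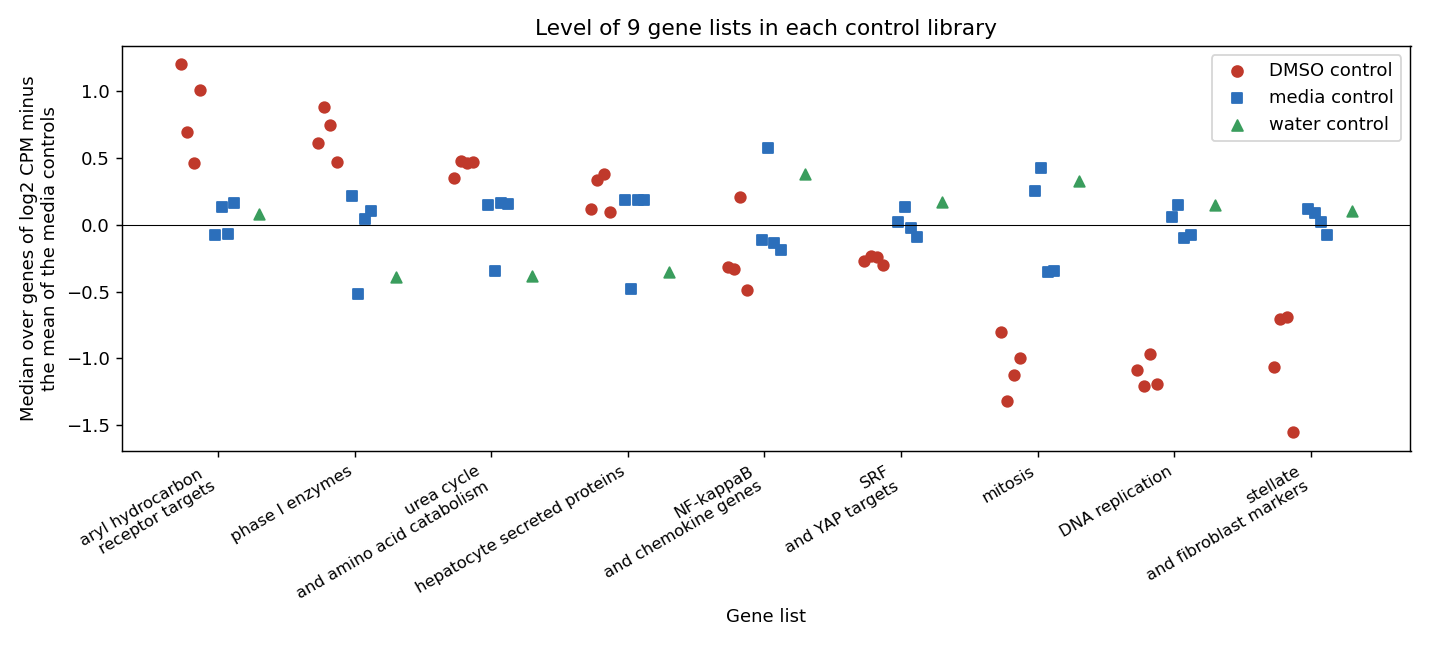
Level of 9 gene lists in each of the 9 control libraries, as the median over the tested genes of log2 CPM minus that gene's mean in the 4 media controls, 1 point per library. In the AHR target, phase I, replication, mitosis and fibroblast lists the DMSO controls lie apart from the media controls, while in the NF-kappaB list the 2DG control (0.57) and the AFB1/COL control (0.21) stand above the rest of their vehicle.

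The largest differences downwards included a carbonic anhydrase, matrix proteins and proteins of basal epithelia. CA9, the carbonic anhydrase best known as a hypoxia marker, was at 2.81, 1.89, 5.58 and 2.35 RPM in the DMSO controls and at 15.7, 27.2, 15.2 and 20.6 RPM in the media controls (log2 -2.58, SE 0.33, 6.00-fold lower, edgeR quasi-likelihood adjusted p = 0.00285). TNC, the matrix protein tenascin C, was at 3.22, 5.03, 9.02 and 3.71 RPM against 24.1, 36.9, 29.8 and 35.1 RPM (log2 -2.54, SE 0.30, adjusted p = 0.00185). S100A2, a calcium-binding protein of basal epithelia, was at 74.0, 89.6, 235 and 61.5 RPM against 977, 822, 480 and 465 RPM (log2 -2.54, SE 0.43, adjusted p = 0.00910). In all 3 genes the AFB1/COL control was the highest DMSO control, and no DMSO control reached the media range.

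Among called genes with at least 20 reads in every media control, the steroid dehydrogenase HSD3B1 had the largest fold change downwards (log2 -3.09, SE 0.68, adjusted p = 0.0265) but only 0 to 65 reads per library and lost the call in 4 of the 8 fits with 1 library left out (adjusted p of up to 0.0902). TNS4, a focal adhesion protein (log2 -2.82), the mucin-folding disulfide isomerase AGR2 (-2.52), SAMSN1 (-2.41), the keratin KRT6A (-2.39), SYTL5 (-2.39), IGFL2 (-2.38) and the decoy receptor IL1R2 (-2.24) were, with CA9, TNC, S100A2 and COL3A1, among the 12 largest of these. AGR2 and SYTL5 lost the call without the CISP control, IGFL2 without the CISP or ETP control and KRT6A in 6 of these 8 fits and with robust dispersion, with adjusted p of up to 0.0504, 0.0622, 0.0607 and 0.0975. Of 18 hypoxia response genes, CA9, the lipase inhibitor ANGPTL4 (log2 -1.05, adjusted p = 0.0103) and the prolyl hydroxylase EGLN3 (-0.68, adjusted p = 0.0366, lost in 6 of 8 fits with 1 library left out) were lower, whereas VEGFA had a log2 fold change of -0.18 (adjusted p = 0.449). The share called lower was 16.7%, beside 3.68% of all genes, and the list median was -0.08.

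Upwards, PEG10, an imprinted gene derived from a retrotransposon, differed little between libraries of the same vehicle. It was at 1229, 1268, 1182 and 1455 RPM in the DMSO controls and at 658, 571, 575 and 590.0 RPM in the media controls (log2 1.12, SE 0.10, edgeR quasi-likelihood adjusted p = 0.00138), with the water control at 575 RPM. HLF, a transcription factor of the PAR bZIP family that regulates detoxification genes in liver, was at 33.4, 34.1, 22.7 and 42.3 RPM against 10.8, 7.71, 14.0 and 11.7 RPM (log2 1.60, SE 0.22, adjusted p = 0.00336). Both genes were called with any library left out. CITED2, a co-regulator of CBP/p300, had a larger fold change (log2 2.18, SE 0.49, adjusted p = 0.0285) at 0.30 to 6.35 RPM and lost the call in 5 of the 8 fits (up to 0.0862).

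Several stress and metabolic programmes gave few or no calls. With edgeR, 0 of 21 genes of the unfolded protein and integrated stress response were called (1 at an unadjusted p under 0.05), 0 of 16 heat shock genes (5), 0 of 8 metallothioneins (0), 0 of 21 sterol synthesis genes (5), 0 of 10 bile acid synthesis genes (3) and 0 of 16 immediate-early genes (0). At the 5.35% of all genes called, lists of 8 to 21 genes would hold few calls, so 0 calls says little about them. Over all 13053 genes tested, 1193 were higher and 1547 lower at an unadjusted p under 0.05. DESeq2 called 1 sterol and 2 bile acid genes, limma-voom called 0 in each of these 6 lists, and the medians lay between -0.09 (heat shock) and 0.47 (bile acid synthesis). Among acute-phase proteins the copper carrier CP was lower (log2 -1.06, SE 0.24, adjusted p = 0.0276), among NF-kappaB targets BIRC3 (-0.61, adjusted p = 0.0203), among interferon-response genes IFI44L (-1.61, adjusted p = 0.0222) and OAS3 (-1.21, adjusted p = 0.0112), and among lipogenic genes the elongase ELOVL6 (-0.67, adjusted p = 0.0217). Of these 5 genes OAS3 was called with any library left out, and the others lost the call in 3 to 5 of the 8 fits, with adjusted p of up to 0.0907. The acute-phase, NF-kappaB, interferon and lipogenic lists had 6.67%, 5.88%, 11.1% and 6.67% of genes called, beside 5.35% of all genes. Of 21 genes of fatty acid oxidation, edgeR called ANGPTL4 (lower, 4.76% of the list), DESeq2 called 3 higher and 2 lower and limma-voom 1 in each direction. Among the 2 endothelial and 3 immune markers tested, 0 were called by edgeR, DESeq2 or limma-voom (1 immune marker at an unadjusted p under 0.05).

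The water control was compared with both groups. For 667 of the 698 called genes (95.6%) its level was nearer the mean of the media controls than that of the DMSO controls, against 65.4% of all genes tested. The exceptions among the genes named include CYP3A5, TIPARP, ANGPTL4, SMAD7 and PER1, of which CYP3A5 was at 251 RPM in the water control, above the media controls (146 to 231 RPM) and below the DMSO controls (302.0 to 362 RPM). With 1 library, no error can be given for water, and it was run with yet another chemical.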

How the data were processed

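The data are Ion AmpliSeq Transcriptome libraries of HepaRG™ cells, of which the 8 vehicle and media controls were compared and the water control placed beside them. The counts used are read counts per target as the authors deposited them, made with the Ion Proton software and its ampliSeqRNA plugin on hg19 after RNA of 3 cultures had been pooled per library. The deposited RPM values are the same counts divided by the library total, and recomputing them gave a difference of at most 0.000519. Each gene is read from 1 amplicon, so levels of different genes are not directly comparable. This limits the remarks on how plentiful the cell type markers were and the sum over markers. Genes with near-identical copies are uncertain. No base-level or amplicon data were used.

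Spike-in targets (10, all at 0 counts in the controls) were left out, genes were kept by filterByExpr, and TMM-normalised counts were tested with edgeR 4.0.16 (R 4.3.3) by the quasi-likelihood F test with vehicle as the only term, 4 libraries against 4. The adjusted p-value is Benjamini-Hochberg over the 13053 genes tested, with a threshold of 0.05, and every adjusted p in the text is from this test unless another tool is named. Groups were said not to overlap on TMM CPM. List levels and principal components used log2 CPM with a prior count of 2. Alternatives used DESeq2 1.42.0 and limma 3.58.1, other normalizations and filters, each control left out in turn, the water control added to the media controls, and a term for control numbers 1 to 5 against 6 to 9. On simulated counts for this comparison over 13053 genes, 84 of 100 genes changed 2-fold and 23 of 100 changed 1.5-fold were called, with 5 false calls. The simulation drew genes independently, with dispersion set by level alone and no difference shared by libraries, such as that between control number ranges. Its rates of calls and false calls may therefore not carry over to these data.

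The genes compared are all genes measured, but the choice of this comparison, the 34 gene lists and the tests were made with earlier results of these data known. Genes were named by fold change (the 12 largest in each direction among called, non-overlapping genes with at least 20 reads in each library of the higher group), by smallest p in each list and over all genes (5), and from a short set named whatever their values. Further list members were named after their values were seen. Promoters are from RefSeq (GRCh38.p14), found for 9720 of the 13053 genes tested, so shares were given only for lists in which over 80% had one. The control numbers come from the sample titles, and what they stand for is not given in the sources used here. Each count limits precision by counting error only, at 9548911 to 16425527 reads per library. Libraries of treated cells were not used, and some list members that count in the totals are not reported here.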

Additional observations from a re-analysis of the deposited data

Results flagged for a closer look

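In 23 of 324 groups of 4 controls checked, over 128 genes and 34 list levels, 1 library stood apart from the other 3. The gap to its nearest neighbour, as a share of the group's range, was above Dixon's 95% critical value, which chance exceeds in about 1 in 20 groups. The 2DG control was the one most often apart among the media controls. It was high for BIRC3 (gap share 0.891), for the imprinted RNA H19 (0.888), and in the levels of the heat shock list (0.917) and the NF-kappaB list (0.896). It was low in the levels of the secreted protein list (0.996), the acute-phase list (0.936) and the urea cycle list (0.976). The NaCl control was high in the phase II list (0.874) and low for MT1A (0.842) and SMAD7 (0.874), the AMP control was high for SESN2 (0.863) and low for UHRF1 (0.979), and the ASC control was low for PER2 (0.866).

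Among the DMSO controls, 2NF was high for GNMT (0.874), PER1 (0.943) and TKT (0.886) and low for OAS3 (0.903) and the interferon list (0.842). The AFB1/COL control was high for AGR2 (0.907) and low for DEPTOR (0.852). The ETP control was high for JUND (0.868) and low for MDM2 (0.859), and the CISP control was low in the urea cycle list (0.872). Of these genes AGR2, BIRC3, DEPTOR, GNMT, H19, OAS3, PER1, SMAD7 and UHRF1 were called between the vehicles.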

How the results depend on the processing

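No paired analysis was possible because the replicate numbers within each vehicle follow accession order only and the controls of the vehicles accompanied different chemicals. The 698 called genes (217 higher, 481 lower) were 1144 with the DESeq2 Wald test (388 higher, 756 lower), 1166 with the water control added to the media controls (412 and 754) and 1275 with a term for control numbers, an alternative chosen after seeing the data (486 and 789). Under the other normalizations, filters and tools the total was 639 to 771. With 1 control left out the total ran from 227 to 907, the higher count from 56 to 256 and the lower count from 171 to 651. The fits without 1 control have fewer samples, and the cause of the other moves was not tested. In each of these fits 0 genes were called in the opposite direction. Without a filter or with 10 counts in every library, lists gain or lose members: the cholangiocyte median (main -0.52) was -0.324 at 10 counts, the immune median (0.12) was 0.526 without a filter and -0.118 at 10 counts, the SRF and YAP median (-0.13) was -0.221 without a filter and the hypoxia median (-0.08) was -0.163 without a filter. The stellate and fibroblast median (-1.17) was -0.832 with limma on log2(RPM + 1), where a pseudocount shrinks low genes. With 1 control left out, the medians ran from -0.836 to -0.408 for cholangiocyte markers, from -0.358 to -0.256 for p53 targets, from -0.144 to -0.026 for heat shock proteins, from -0.386 to 0.07 for NF-kappaB genes, from -0.357 to -0.125 for extracellular matrix genes and from -0.131 to 0.035 for hypoxia genes, and the cause was not tested. The signs of 3 uncalled genes turned in such fits: ARNTL (-0.208 to 0.07), FMO4 (-0.379 to 0.027) and KDR (-0.111 to 0.231). On log2(RPM + 1) the largest number of genes over 2-fold between 2 controls of a vehicle was 314 for DMSO and 852 for media, and 665 of the called genes had the water control nearer the media mean. Depth limits the low genes, for which a few reads set the fold change.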

Other observations

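Genes of homologous recombination and the Fanconi anaemia pathway, which repair broken and cross-linked DNA during replication, were looked at after the replication genes had been seen to be lower, so their values are a description. Of 16 genes, 12 were called lower in the DMSO controls, beside 3.68% of all genes. RAD54L, a DNA translocase of homologous recombination, was at 1.32, 1.15, 1.22 and 1.36 RPM in the DMSO controls of CISP, 2NF, AFB1/COL and ETP and at 4.27, 5.53, 5.48 and 3.36 RPM in the media controls of NaCl, 2DG, ASC and AMP (log2 -1.85, SE 0.24, edgeR quasi-likelihood adjusted p = 0.00294). XRCC3, which acts in the same pathway, was at 4.87, 5.34, 5.87 and 4.46 RPM against 15.1, 13.0, 11.3 and 12.0 RPM (log2 -1.29, SE 0.17, adjusted p = 0.00295). EME1 (log2 -1.95), XRCC2 (-1.47), FANCB (-1.48) and FANCI (-1.43) were also called with any library left out. EXO1 (log2 -1.58), FANCD2 (-1.09), BLM (-1.86), FANCA (-0.98) and BARD1 (-0.57) were lower but lost the call in 1 to 7 of the 8 fits with 1 library left out, with adjusted p of up to 0.143, FANCA also with limma-voom and BARD1 without a filter. RBBP8 and MRE11A were among those not called.

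Clock-controlled transcription factors were looked at because HLF was among the genes with the largest fold change. TEF, of the same PAR bZIP family, was at 14.0, 8.90, 10.7 and 14.1 RPM in the DMSO controls and at 4.57, 4.43, 6.64 and 6.88 RPM in the media controls (log2 1.10, SE 0.22, edgeR quasi-likelihood adjusted p = 0.0169), and lost the call in 2 of the 8 fits with 1 library left out (up to 0.0688). PER1 was called (log2 0.43, adjusted p = 0.0363), with the water control, at 174 RPM, within the DMSO range, and was not called in 6 of the 8 fits with 1 library left out (up to 0.102) or with the water control added to the media controls (adjusted p = 0.168). The third PAR bZIP gene DBP (log2 0.58, adjusted p = 0.128), CRY2 (0.58, adjusted p = 0.0526) and the core clock genes CLOCK (0.05) and ARNTL (-0.08) were not called. Nor were NR1D2 (0.51) and PER3 (0.36), or, with negative values, NPAS2 (-0.43, adjusted p = 0.0787), PER2 (-0.40), NR1D1 (-0.24) and CRY1 (-0.23). The NPAS2 groups did not overlap. Beside HLF, only TEF and PER1 of this set were called, and 5.35% of all genes were.

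A few genes outside the lists were picked after their values were seen because their groups lay far apart. H19, an imprinted RNA of fetal liver, was at 45.04, 74.2, 84.8 and 54.9 RPM in the DMSO controls and at 223, 299, 217 and 224 RPM in the media controls (log2 -1.87, SE 0.20, edgeR quasi-likelihood adjusted p = 0.00172). LGALS1, the lectin galectin 1, had a log2 fold change of -1.66 (adjusted p = 0.00172). DEPTOR, an inhibitor of mTOR (log2 1.13, adjusted p = 0.00185), and GADD45G (1.29, adjusted p = 0.00235) were higher, and each of these 4 genes was called with any library left out.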
